A study of Mus musculus with 4 samples.

Results

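The thymocyte integrins described here are 10 genes: the alpha chain genes Itga4, Itga5, Itga6, Itgae, Itgal and Itgav and the beta chain genes Itgb1, Itgb2, Itgb3 and Itgb7. They were chosen by symbol from a list of integrin chains known from thymocytes, with earlier results of these data known. All 10 were among the 35976 gene symbols of the count files. Transcripts were measured by bulk RNA-seq in mouse thymocytes sorted as CD24+TCRb-CD4+CD8a+, the immature double-positive (DP) stage. Knockout (KO) libraries came from Cxxc1 F/F :Lck-cre mice and control libraries from Cxxc1 +/+ :Lck-cre mice, with 2 libraries per genotype. Both genotypes therefore carried the Lck-cre transgene, in which a T-lineage promoter drives the recombinase, and only the KO carried floxed Cxxc1. The Cxxc1 protein recognises unmethylated CpG sites and is a subunit of complexes that methylate histone H3 at lysine 4. Age and strain are not given in the labels. Nothing there says that libraries came from separate animals, and the spread behind the p-values may therefore be technical.

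Integrins are surface receptors made of 1 alpha and 1 beta chain, and each pairing binds its own ligands. A chain generally needs its partner to reach the surface, and the beta tail binds talin and kindlin, which switch the receptor into its adhesive state. In the thymus, integrins hold developing T cells to laminin, fibronectin and VCAM-1 of the stroma and, through the LFA-1 receptor of Itgal and Itgb2 chains, to ICAM-1 on cells that present antigen.

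The library totals were 36243182 and 33544428 counts in KO 1 and KO 2, and 12150508 and 34820446 counts in control 1 and control 2. Cxxc1 had 35.7 and 39.4 CPM (counts scaled to library size) in the KO libraries, against 111 and 53.5 CPM in the control libraries. Its log2 fold change was -1.12 ± 0.34 (SE), with an adjusted p of 0.199 by edgeR's quasi-likelihood test. Control 1 held the higher of the 2 control values, and the estimate was -0.51 without control replicate 1 (adjusted p = 0.566) and -1.56 without control replicate 2 (adjusted p = 0.00874). Which exons are floxed is not stated in the labels, so gene-level reads do not measure remaining protein. Called genes are those with a Benjamini-Hochberg adjusted p below 0.05 in that test, which were 0.270% of all tested genes higher and 0.181% lower in the KO. Of 15 DP markers, 3 fell, Dntt, Cd4 and Cd8a, and 0 rose, and the summed level of the 15 was 11148 and 14513 CPM in KO libraries and 19372 and 23680 CPM in control libraries. Of 12 tested markers of the preceding stages, 4 rose (Il2ra, Il7r, Notch3 and Dtx1) and 0 fell, and the 14 listed markers summed to 922 and 523 CPM in KO libraries and 189 and 146 CPM in control libraries. Point estimates were higher for 8 of the 12 and lower for 4. Among the lower was Cd44, below the control in both KO libraries (log2 fold change -1.30 ± 0.32, adjusted p = 0.124). The part of this shift in stage markers in the integrin values was not tested. In such bulk samples, fewer cells of a type and less RNA per cell cannot be told apart.

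Itga4 was the integrin with the smallest p, higher in both KO libraries, while Itgal, Itgb2 and Itgb7 were lower in both. None of these differences passed the threshold. edgeR called 0 of the 10 integrins, against 0.451% of all 20389 tested genes (0.270% higher and 0.181% lower in the KO). Before adjustment, 5 of the 10 had a p below 0.05, against 13.9% of all tested genes. Of these, Itga4 and Itgb3 were higher in the KO, against 6.97% of all genes, and Itgal, Itgb2 and Itgb7 were lower, against 6.91%. DESeq2 called 3 of the 10, against 4.64% of all genes. It called Itga4 higher, against 2.16% of all genes, and Itgal and Itgb2 lower, against 2.48%. The libraries of the 2 genotypes did not overlap for 7 of the 10, against 46.8% of all tested genes. Both KO libraries were the higher for 2 of these 7, against 22.8% of all genes, and the lower for 5, against 24.0%. The median log2 fold change of the 10, KO over control, was -0.32, and that of all tested genes was -0.04. All 10 passed the filter on low counts.

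**Figure D1:**
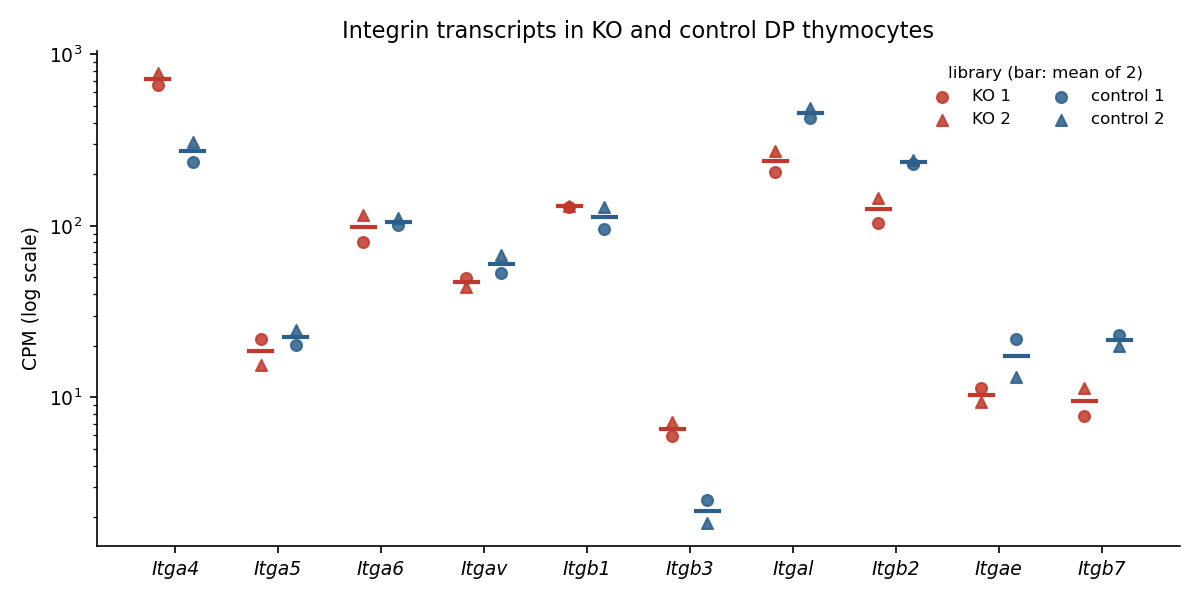
Level of each integrin transcript in CPM (log scale) in every library, KO in red and control in blue, with bars at the mean of 2 libraries. Itga4 reached 667 and 776 CPM in the KO libraries, above both control libraries, while Itgal, Itgb2, Itgae and Itgb7 lay below both.

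Itga4 encodes the alpha-4 chain, which pairs with the Itgb1 chain as VLA-4, a receptor for VCAM-1 and fibronectin, or with the Itgb7 chain as a receptor for the mucosal ligand MAdCAM-1. The gene lies on the plus strand of chromosome 2, 79255426 to 79333114 (RefSeq span, GRCm38.p6). Raw counts were 23244 and 27620 in KO 1 and KO 2, and 2787 and 10748 in control 1 and control 2. Scaled to depth, these were 667 and 776 CPM in the KO libraries, against 234 and 310 CPM in the control libraries. Both KO libraries stood above both control libraries by more than either pair differed within itself. The mean was 722 ± 77.02 CPM in KO and 272 ± 53.6 CPM in control cells (SD, n = 2 each). The log2 fold change was 1.41 ± 0.25 (SE), a 2.65-fold difference with a 95% interval of 0.85 to 1.96 on the log2 scale. The adjusted p from edgeR was 0.0518, just past the 0.05 threshold, and Itga4 ranked at position 103 of 20389 genes by p. Over 9 alternatives in the test, the scaling, the filter and the libraries used, the adjusted p ran between 3.88e-06 and 0.104 and the log2 fold change between 1.22 and 1.62. It was called in 4 of the 9. Without control replicate 2 it was called at 1.62 (adjusted p = 0.0227), and without control replicate 1 it was 1.22 (adjusted p = 0.0767). The exons of Itga4 share 1124 bases, 8.04% of their length, with Cerkl on the opposite strand, which had at most 135 counts in any library.

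Because Cxxc1 protein binds CpG, the 250 bases before a RefSeq start site are shown for Itga4 and for its partner chains Itgb1 and Itgb7. They are RefSeq promoter sequences on GRCm38.p6, each 5′ to 3′ on the gene's own strand, with each CG in capitals. The windows are chr2:79255176-79255425 on the plus strand, chr8:128685404-128685653 on the plus strand and chr15:102231936-102232185 on the minus strand. The Itga4 and Itgb1 windows end where the RefSeq span of the gene begins. The Itgb7 window precedes a start site inside the span, lies wholly within it with its far edge 1220 bases inside, and holds 9 bases of an annotated Itgb7 exon.
Itga4: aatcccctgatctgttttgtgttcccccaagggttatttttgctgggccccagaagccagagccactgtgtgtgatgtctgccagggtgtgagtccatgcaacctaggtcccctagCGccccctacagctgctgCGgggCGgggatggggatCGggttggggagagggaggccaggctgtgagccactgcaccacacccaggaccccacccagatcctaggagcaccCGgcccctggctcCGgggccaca
Itgb1: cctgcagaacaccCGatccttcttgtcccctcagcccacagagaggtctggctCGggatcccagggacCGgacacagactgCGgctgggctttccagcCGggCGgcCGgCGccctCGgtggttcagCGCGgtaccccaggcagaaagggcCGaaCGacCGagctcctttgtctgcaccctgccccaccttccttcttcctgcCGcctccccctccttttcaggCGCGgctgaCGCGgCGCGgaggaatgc
Itgb7: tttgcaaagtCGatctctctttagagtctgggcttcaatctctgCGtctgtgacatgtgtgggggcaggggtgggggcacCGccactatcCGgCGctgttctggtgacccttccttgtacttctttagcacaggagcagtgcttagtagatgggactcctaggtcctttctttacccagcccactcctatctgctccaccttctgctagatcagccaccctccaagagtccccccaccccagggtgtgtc
The motif CG, which reads the same on both strands, occurs 6 times in the Itga4 window, 21 times in the Itgb1 window and 5 times in the Itgb7 window. Across 27018 genes with a window, 91.7% hold at least 1 CG, and the median is 6. As many as for Itga4 or more were found in 50.5% of windows, as many as for Itgb1 or more in 16.1%, and as many as for Itgb7 or more in 55.5%. Windows were matched for 5 of the 10 integrins, and the other 2 of these, Itgav and Itga5, held 18 and 11. The Itgav window also lies within the span of its gene. The DNA methylation of these windows and the binding of Cxxc1 to them were not measured in these libraries.

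The partner of Itga4 with the higher level, Itgb1, did not differ between genotypes beyond the spread of the libraries. Itgb1 (chromosome 8, 128685654 to 128733579) encodes the beta-1 chain, shared by the receptors for fibronectin, laminin and VCAM-1. It had 129.2 and 130.7 CPM in the KO libraries, against 95.3 and 129.4 CPM in the control libraries. Control 1 was the low library and the KO libraries overlapped control 2. The log2 fold change was 0.21 ± 0.24, with a 95% interval of -0.32 to 0.74 (adjusted p = 0.776). The ratio of Itga4 to Itgb1, each per length of its exons, was 1.51 and 1.73 in the KO libraries and 0.718 and 0.700 in the control libraries, 2.28-fold higher in the KO. A ratio within a library does not depend on library scaling, and the fold between genotypes does not depend on the length used. With 2 libraries against 2, an exact two-sided permutation test cannot give a p below 0.333, so ratios are given without a test.

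Itgb7, the other partner chain of Itga4, was lower in both KO libraries. The gene (chromosome 15, 102215994 to 102233405, minus strand) encodes the beta-7 chain of gut-homing and intraepithelial T cells. It had 7.75 and 11.3 CPM in the KO libraries, against 23.0 and 19.9 CPM in the control libraries. The 2 genotypes did not overlap. The log2 fold change was -1.17 ± 0.37 with a 95% interval of -2.01 to -0.34, and edgeR gave an adjusted p of 0.214. The Itga4 to Itgb7 ratio per length was 17.1 and 13.6 in the KO libraries and 2.02 and 3.09 in the control libraries, a 6.11-fold difference. The Itgb1 to Itgb7 ratio was 11.3 and 7.87 in the KO libraries and 2.81 and 4.42 in the control libraries.

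Itgae encodes the alpha-E chain (CD103), whose only known partner is the Itgb7 chain and whose ligand is E-cadherin. The gene lies on chromosome 11, 73090505 to 73147449. It had 11.3 and 9.41 CPM in the KO libraries and 21.9 and 13.1 CPM in the control libraries. Both KO libraries were below both control libraries, but the control libraries were further apart from each other than control 2 was from the KO. The log2 fold change was -0.75 ± 0.40 (95% interval -1.65 to 0.15, adjusted p = 0.453). Without control replicate 1 it was -0.34. The Itgae to Itgb7 ratio, 0.880 and 0.505 in the KO libraries and 0.574 and 0.399 in the control libraries, overlapped between genotypes.

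The LFA-1 pair, Itgal and Itgb2, was lower in both KO libraries by nearly the same amount. Itgal (chromosome 7, 127296139 to 127335137), the alpha-L chain, had 207 and 274 CPM in the KO libraries and 423 and 487 CPM in the control libraries. Itgb2 (chromosome 10, 77530329 to 77565708), the beta-2 chain common to leukocyte integrins, had 104 and 145 CPM in the KO libraries and 229 and 242 CPM in the control libraries. For both genes the highest KO library, KO 2, lay well below the lowest control library. The log2 fold changes were -0.92 ± 0.24 for Itgal and -0.91 ± 0.24 for Itgb2, with 95% intervals of -1.46 to -0.38 and -1.46 to -0.37. edgeR gave adjusted p-values of 0.142 and 0.147, and DESeq2 gave 0.00669 and 0.0128. Without KO replicate 1 the log2 fold changes were -0.70 and -0.66. The Itgal to Itgb2 ratio per length was 0.921 and 0.875 in the KO libraries and 0.859 and 0.935 in the control libraries, so both KO libraries lay within the control range.

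**Figure D2:**
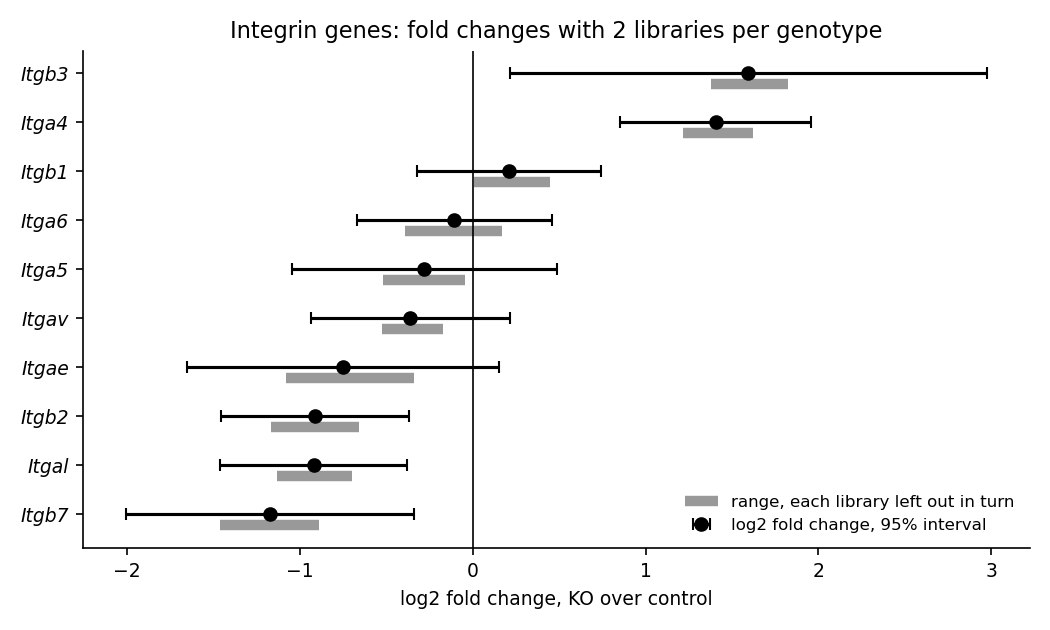
Log2 fold change of each integrin gene, KO over control, with its 95% interval from edgeR's quasi-likelihood fit (black), and the range of the estimate when each library is left out in turn (grey). The intervals of Itga4 and Itgb3 lie above 0 and those of Itgal, Itgb2 and Itgb7 below 0, without adjustment for the number of genes tested.

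Itgb3 had the highest fold change of the 10 and the fewest counts. The gene (chromosome 11, 104608000 to 104670476) encodes the beta-3 chain, which pairs with the Itgav chain in vitronectin receptors and with the Itga2b chain on platelets. Raw counts were 207 and 255 in the KO libraries, against 30 and 64 in the control libraries. These were 5.94 and 7.16 CPM in the KO libraries, against 2.52 and 1.85 CPM in the control libraries, with no overlap. The log2 fold change was 1.59 ± 0.61 with a 95% interval of 0.21 to 2.97 (adjusted p = 0.298). Among 15 platelet, megakaryocyte and mast cell markers, 9 stayed under 1 CPM in every library and 2 had no count in any. The 15 summed to 12.8 and 19.1 CPM in the KO libraries and 20.9 and 18.5 CPM in the control libraries. edgeR called 0 of the 8 tested, and point estimates were higher for 1 of the 8 and lower for 7. Before adjustment, 0 were higher and 2 lower at p below 0.05, against 6.97% and 6.91% of all tested genes. Gp1ba, which encodes a chain of the platelet receptor for von Willebrand factor, made up most of the KO sum, at 9.44 and 13.9 CPM in the KO libraries and 6.89 and 6.92 CPM in the control libraries (log2 fold change 0.75). Itga2b, the platelet partner, had 1.84 and 2.08 CPM in the KO libraries and 7.57 and 3.92 CPM in the control libraries (log2 fold change -1.54), and Pf4, which encodes platelet factor 4, had 0 counts in both KO libraries. Gp1ba, Itga2b and Pf4 were chosen after their values were seen, and the part of such cells in the Itgb3 value was not tested.

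The 3 remaining alpha chains, Itgav, Itga5 and Itga6, had log2 fold changes between -0.36 and -0.11, each with an interval that spans 0. Itgav (chromosome 2, 83722303 to 83806917), the vitronectin receptor alpha chain, had 49.9 and 43.7 CPM in the KO libraries and 52.8 and 67.4 CPM in the control libraries. The KO libraries were below the control libraries by a narrow gap, with a log2 fold change of -0.36 ± 0.26 (95% interval -0.94 to 0.21, adjusted p = 0.601). The Itgav to Itgb3 ratio per length was 4.62 and 3.35 in the KO libraries and 11.5 and 20.0 in the control libraries. Itga5 (chromosome 15, 103344286 to 103366791), the alpha chain of the main fibronectin receptor, had 21.8 and 15.3 CPM in the KO libraries and 20.2 and 24.8 CPM in the control libraries. These overlapped, at -0.28 ± 0.34 (95% interval -1.05 to 0.48, adjusted p = 0.793). Itga6 (chromosome 2, 71786886 to 71858427), a laminin receptor alpha chain, had 80.4 and 115.8 CPM in the KO libraries and 100.7 and 110.5 CPM in the control libraries. The KO libraries held both the lowest and the highest value, and the log2 fold change was -0.11 ± 0.25 (95% interval -0.67 to 0.46, adjusted p = 0.914). Without KO replicate 1 its sign turned, at 0.17. Per Itgb1, Itga5 and Itgav were lower in both KO libraries, at 0.139 and 0.0971 against 0.175 and 0.159 for Itga5 and at 0.147 and 0.127 against 0.211 and 0.198 for Itgav, KO libraries against control libraries. The Itga6 to Itgb1 ratio overlapped, at 0.282 and 0.401 in the KO libraries and 0.478 and 0.386 in the control libraries.

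**Figure D3:**
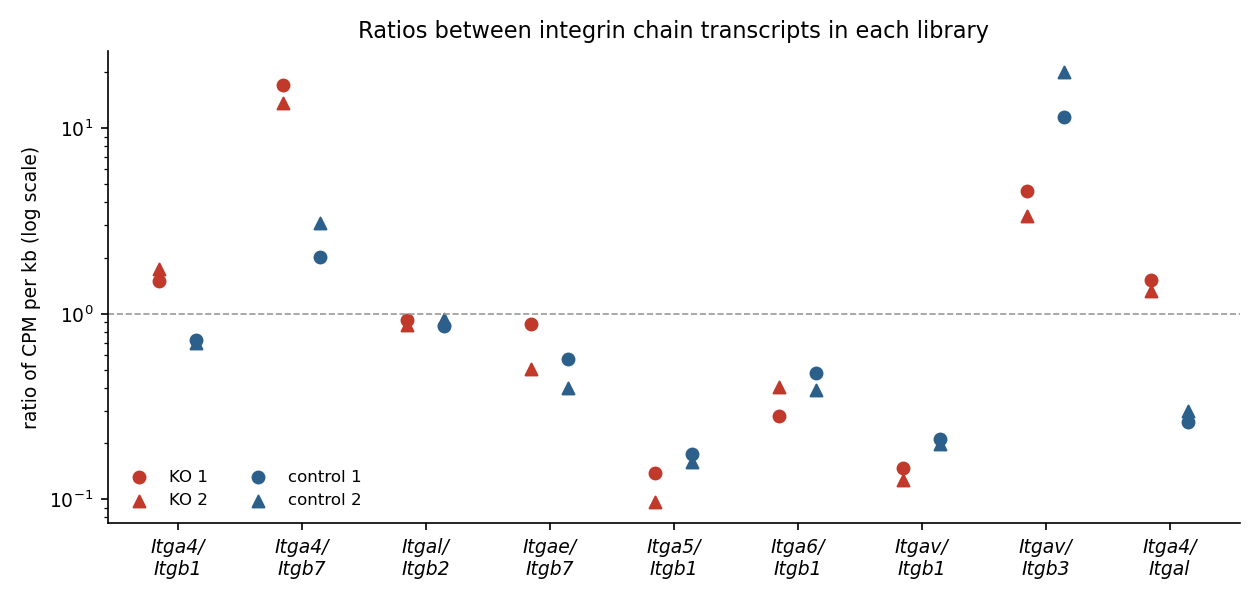
Ratio between integrin chain transcripts in each library, in CPM per kb of exon (log scale), KO in red and control in blue. The Itga4 to Itgb1 and Itga4 to Itgal ratios are above 1 in both KO libraries and below 1 in both control libraries, while the Itgal to Itgb2 ratio stays between 0.859 and 0.935 in all 4.

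Levels of different genes were compared per kilobase of exon, with exons merged from the GENCODE annotation of GRCm38. In the KO, Itga4 stood highest at 51.6 ± 5.51 CPM per kb (SD, n = 2), followed by Itgb2 at 40.9 ± 9.48, Itgal at 36.6 ± 7.15 and Itgb1 at 31.8 ± 0.260. The libraries of Itgb2 overlapped those of Itgal, which overlapped those of Itgb1, and the lower Itga4 library lay barely above the higher Itgb2 library. Itga6 followed at 10.9 ± 2.77 CPM per kb, then Itgav, Itga5 and Itgb7 with means between 4.36 and 3.43. The libraries of Itga5 overlapped those of Itgav and of Itgb7, while those of Itgav lay barely above those of Itgb7. Itgae, at 2.26 ± 0.288, and Itgb3, at 1.11 ± 0.147 CPM per kb, lay below Itgav, Itga5 and Itgb7. In the control, Itgb2 stood highest at 77.2 ± 3.04 CPM per kb, then Itgal at 69.3 ± 6.89, whose libraries lay just below those of Itgb2. Next came Itgb1 at 27.5 ± 5.92 and Itga4 at 19.5 ± 3.83 CPM per kb, then Itga6 at 11.7 ± 0.768 and Itgb7 at 7.75 ± 0.806, each clear of its neighbours. The libraries of Itga5 overlapped those of Itgav and of Itgae, while those of Itgav lay just above those of Itgae. The means of Itgav, Itga5 and Itgae lay between 5.59 and 3.82 CPM per kb, and Itgb3 was lowest at 0.370 ± 0.0810. Itga4 was therefore in position 1 in both KO libraries and position 4 in both control libraries. The same positions were found per length of the principal transcript of each gene, an alternative chosen after the data were seen. Some neighbours changed places under that length, Itgal and Itgb2 in all 4 libraries among them.

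Among the 6 alpha chains, Itga4 made up 47.9% and 46.6% of the summed CPM per kb in KO 1 and KO 2, against 15.8% and 18.1% in control 1 and control 2. Itgal made up 31.6% and 34.9% in the KO libraries, against 60.7% and 60.4% in the control libraries. The Itga4 to Itgal ratio was 1.51 and 1.33 in the KO libraries and 0.260 and 0.299 in the control libraries, a 5.09-fold difference. The summed level of the 6 alpha chains was 99.7 and 119.2 CPM per kb in the KO libraries and 106.1 and 122.8 in the control libraries, which overlapped. The 4 beta chains summed to 69.7 and 84.9 CPM per kb in the KO libraries and 107.1 and 118.5 in the control libraries, which did not overlap. Within the beta chains, Itgb1 made up 45.4% and 37.7% in the KO libraries and 21.8% and 26.8% in the control libraries. Itgb2 made up 49.1% and 56.1% in the KO libraries and 70.0% and 66.9% in the control libraries.

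Log2 fold changes of genes on the same chromosome were close in some cases and unlike in others. Itga4, Itga6 and Itgav lie on chromosome 2 at log2 fold changes of 1.41, -0.11 and -0.36, Itgae and Itgb3 on chromosome 11 at -0.75 and 1.59, and Itga5 and Itgb7 on chromosome 15 at -0.28 and -1.17. Itgal has 3 other alpha chain genes that pair with Itgb2 downstream of it on chromosome 7, Itgam, Itgax and Itgad, the nearest starting 0.728 Mb away. Itgam, which encodes the CD11b chain of myeloid cells, had 23.4 and 41.2 CPM in the KO libraries and 14.2 and 20.3 CPM in the control libraries (log2 fold change 0.90 ± 0.37, adjusted p = 0.332), where Itgal had -0.92 ± 0.24. In GENCODE, 68.7% of the exon bases of Itgam are shared with Gm49368 on the same strand, so its value is uncertain. At low levels, Itgax had -1.15 ± 1.30 (adjusted p = 0.775), in the direction of Itgal, and Itgad had 3.02 ± 1.40 (adjusted p = 0.383). Of the 15 macrophage, dendritic and granulocyte markers, Itgam included, 5 were under 1 CPM in every library. Cd68 had 5.77 and 9.86 CPM in the KO libraries and 4.12 and 9.17 CPM in the control libraries, and Cd14 had 0 counts in both KO libraries and 0 and 4.36 CPM in the control libraries. Lyz2, Csf1r and Adgre1 were at most 1.87 CPM in any library, and these 5 genes were chosen after their values were seen. The 15 summed to 34.9 and 56.0 CPM in the KO libraries and 27.7 and 40.2 CPM in the control libraries. Itgam made up most of that sum in every library, so the sum does not measure myeloid RNA apart from Itgam.

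The other 17 integrin chain genes were all tested, and edgeR called 0 of them. Before adjustment 3 were higher and 2 lower in the KO at p below 0.05, against 6.97% and 6.91% of all tested genes. DESeq2 called 1 higher and 1 lower, against 2.16% and 2.48%. The median log2 fold change of the 17 was -0.76. Itga9 encodes an alpha chain that pairs with Itgb1 and binds tenascin and VCAM-1. It had 46.0 and 21.4 CPM in the KO libraries and 10.3 and 1.56 CPM in the control libraries (2.57 ± 0.75, adjusted p = 0.189 in edgeR and 0.00544 in DESeq2). Both pairs of libraries were far apart within themselves, and leaving out 1 library moved the log2 fold change of Itga9 between 1.72, without control replicate 2, and 4.43, when control replicate 1 was left out. It was called in that last fit (adjusted p = 0.000283). Itga3, a laminin receptor alpha chain, had 1.18 and 1.71 CPM in the KO libraries and 6.22 and 7.15 CPM in the control libraries (-2.21 ± 0.64, adjusted p = 0.188).

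Genes that regulate integrins or bind their tails were mostly lower as point estimates, with 0 of 25 called by edgeR. The list mixes genes that switch integrins on with others, such as Flna, that hold them inactive, so its direction does not measure integrin activation. Before adjustment, 7 were lower at p below 0.05, against 6.91% of all tested genes, and 0 higher, against 6.97%. DESeq2 called 2, both lower, against 2.48% of all tested genes. In 21 of the 25 the KO estimate was lower, against 52.4% of all tested genes, and their median log2 fold change was -0.29. Rasgrp1, an exchange factor that activates Ras downstream of the T cell receptor, had 221 and 280 CPM in the KO libraries and 597 and 830 CPM in the control libraries (-1.51 ± 0.26, adjusted p = 0.0509). Flna, the actin crosslinker filamin A that binds beta tails and holds integrins inactive, had 197 and 243 CPM in the KO libraries and 531 and 489 CPM in the control libraries (-1.21 ± 0.23, adjusted p = 0.0676). In both genes the genotypes were far apart. DESeq2 called both lower, with adjusted p-values of 7.1e-07 for Rasgrp1 and 3.24e-05 for Flna. In edgeR with RLE scaling the adjusted p-values were 0.0487 for Rasgrp1 and 0.0649 for Flna. Without control replicate 1 the log2 fold changes were -1.73 for Rasgrp1 and -1.15 for Flna. Without control replicate 2 they were -1.25 and -1.27. Talin-1 (Tln1), which activates integrins through the beta tail, had 688 and 637 CPM in the KO libraries and 832 and 763 CPM in the control libraries (-0.27 ± 0.22, adjusted p = 0.668). Fyb, the ADAP adaptor that links the T cell receptor to integrins, had -0.41 ± 0.23 (adjusted p = 0.483).

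Focal adhesion and actin linkage genes had a median log2 fold change of -0.12, and edgeR called 0 of 25 tested (27 listed). Before adjustment, 1 was higher and 3 were lower at p below 0.05, against 6.97% and 6.91% of all tested genes. DESeq2 called 1, which was lower, against 2.48% of all tested genes. Zyx (zyxin) had 61.9 and 73.3 CPM in the KO libraries and 114.9 and 109.2 CPM in the control libraries (-0.73 ± 0.23, adjusted p = 0.210). Dock2, a Rac activator needed for lymphocyte migration, had 456 and 583 CPM in the KO libraries and 804 and 905 CPM in the control libraries (-0.72 ± 0.24, adjusted p = 0.232). The nonmuscle myosin gene Myh9 had -0.31 ± 0.23 (adjusted p = 0.618).

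Of 15 tested integrin-associated membrane protein genes (16 listed), edgeR called 0, at a median of -0.38. Before adjustment, 1 was higher and 1 lower at p below 0.05, against 6.97% and 6.91% of all tested genes. DESeq2 also called 1 higher and 1 lower, against 2.16% and 2.48%. Cd44, a hyaluronan receptor, had 11.7 and 15.003 CPM in the KO libraries and 30.3 and 35.2 CPM in the control libraries (-1.30 ± 0.32, adjusted p = 0.124). The tetraspanin gene Cd9 had 5.42 and 1.94 CPM in the KO libraries and 0.504 and 0.144 CPM in the control libraries (3.59 ± 1.16, adjusted p = 0.222). Leaving out 1 library moved Cd9 between 2.66, without KO replicate 1, and 4.64, without control replicate 1, where it was called (adjusted p = 0.0379). Cd47, which associates with Itgav and Itgb3 chains, had 0.02 ± 0.26 (adjusted p = 0.985), and Bsg, which encodes basigin, had 0.35 ± 0.27 (adjusted p = 0.642).

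Integrin ligand genes were mostly at low levels in these cells, with 8 of 26 under 1 CPM in every library. edgeR called 0 of 20 tested, at a median of -0.64. Before adjustment, 0 were higher and 3 lower at p below 0.05, against 6.97% and 6.91% of all tested genes. DESeq2 called 2, both lower, against 2.48% of all tested genes. The laminin chain gene Lamc1 had 9.84 and 13.7 CPM in the KO libraries and 24.4 and 29.5 CPM in the control libraries (-1.20 ± 0.34, adjusted p = 0.184). Ltbp1, which tethers latent TGF-beta, had 0.115 and 0.337 CPM in the KO libraries and 2.77 and 2.97 CPM in the control libraries (-3.64 ± 1.19, adjusted p = 0.228). It was -3.04 without KO replicate 1 and -4.59 without KO replicate 2. Tgfb1, whose latent form is bound and activated by Itgav-containing integrins, had 25.9 and 37.2 CPM in the KO libraries and 68.3 and 46.4 CPM in the control libraries (-0.86 ± 0.31, adjusted p = 0.265). Icam2, a ligand of LFA-1, had -0.15 ± 0.26 (adjusted p = 0.874).

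Of 17 tested adhesion and homing molecules other than integrins (18 listed), edgeR called 3 lower in the KO and 0 higher. Over all tested genes the shares were 0.181% lower and 0.270% higher. The median log2 fold change of the list was -0.57. Before adjustment, 1 was higher and 7 lower at p below 0.05, against 6.97% and 6.91% of all tested genes. DESeq2 called 1 higher and 6 lower, against 2.16% and 2.48%. Plxnd1, a semaphorin receptor gene, had 110 and 173 CPM in the KO libraries and 703 and 604 CPM in the control libraries (-2.21 ± 0.28, adjusted p = 0.0177 in edgeR). The proteoglycan gene Sdc4, which acts with integrins on fibronectin, had 1.46 and 0.815 CPM in the KO libraries and 21.4 and 12.9 CPM in the control libraries (-3.90 ± 0.55, adjusted p = 0.0250). The homophilic adhesion gene Ncam1 had 4.28 and 3.26 CPM in the KO libraries and 22.4 and 25.3 CPM in the control libraries (-2.66 ± 0.39, adjusted p = 0.0299). Without KO replicate 1 the calls of Plxnd1, Sdc4 and Ncam1 ended, at -1.88, -4.34 and -2.83, and without KO replicate 2 those of Sdc4 and Ncam1 ended, at -3.54 and -2.48.

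**Figure D4:**
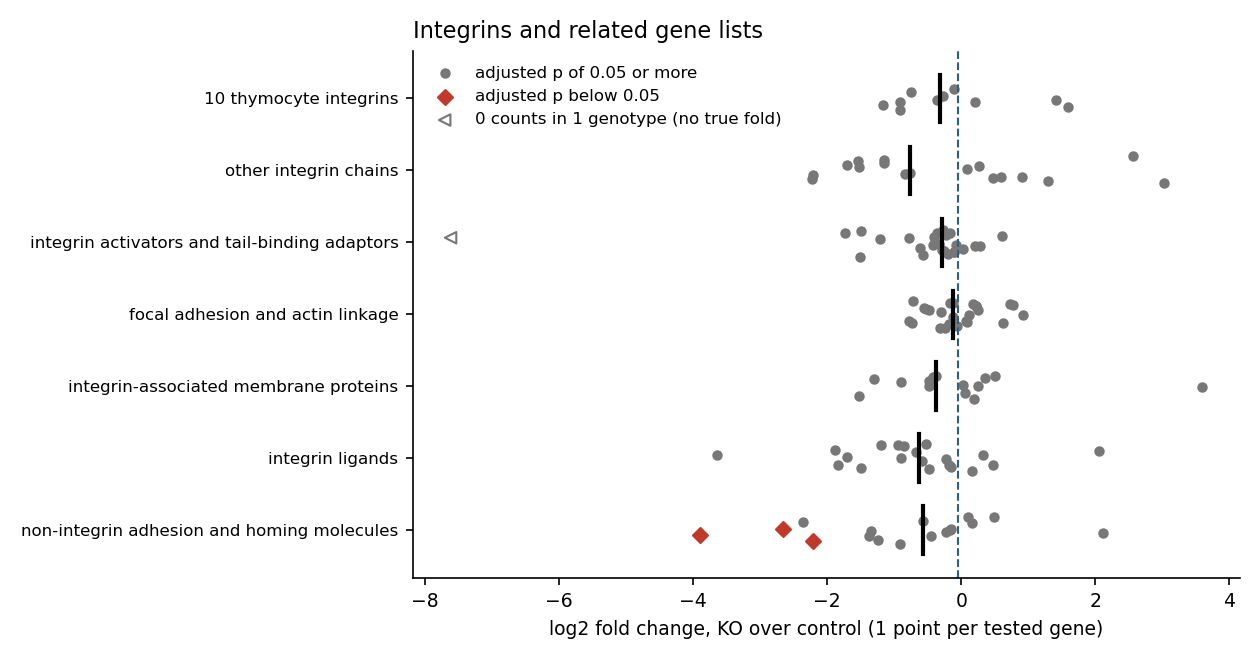
Log2 fold change, KO over control, of each tested gene in the 10 thymocyte integrins and in 6 related lists, with the list median as a black bar and the median of all tested genes, -0.04, as a dashed line. Red diamonds mark the 3 genes with an adjusted p below 0.05, all in the list of non-integrin adhesion and homing molecules.

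Markers of other cells bear on genes that those cells share. Thymic epithelial, endothelial and fibroblast markers, 14 in number, summed to 144 and 164 CPM in the KO libraries and 150 and 171 CPM in the control libraries, and edgeR called 0 of the 11 tested. Before adjustment, 2 were higher and 2 lower at p below 0.05, against 6.97% and 6.91% of all tested genes. DESeq2 called 2 higher and 1 lower, against 2.16% and 2.48%. Most of that sum was Pecam1, at 102.2 and 133.9 CPM in the KO libraries and 125 and 151 CPM in the control libraries, while the epithelial factor gene Foxn1 was at most 1.60 CPM in any library. The epithelial marker Epcam had 11.6 and 15.1 CPM in the KO libraries and 1.09 and 4.88 CPM in the control libraries (2.11 ± 0.65, adjusted p = 0.210). Of the 11 tested, 2 had higher and 9 lower point estimates. Pecam1, Foxn1 and Epcam were chosen after their values were seen. B-lineage markers summed to 10.99 and 8.32 CPM in the KO libraries and 11.3 and 8.42 CPM in the control libraries. Of 7 tested erythroid markers, the globin gene Hba-a1 rose, at 14.6 and 6.49 CPM in the KO libraries and 0 counts in both control libraries. The 7 erythroid markers summed to 38.7 and 26.7 CPM in the KO libraries and 9.42 and 15.3 CPM in the control libraries, most of the control sum being Alas2. Before adjustment, 4 of the 7 were higher in the KO and 0 lower at p below 0.05, against 6.97% and 6.91% of all tested genes. Adjusted calls that were higher in the KO, as for Hba-a1, made up 0.270% of all tested genes. Of 9 tested innate-like, NK and gamma-delta T markers, edgeR called 1, Gzma, which rose, against 0.270% of all tested genes. Point estimates were higher for 5 of the 9 and lower for 4. The 12 listed summed to 50.7 and 58.8 CPM in the KO libraries and 33.5 and 19.3 CPM in the control libraries. Of 9 tested mature single-positive and regulatory T markers, edgeR called 1, the class I gene H2-K1, which rose, against the same 0.270%. Point estimates were higher for 4 of these 9 and lower for 5. The 10 listed summed to 166 and 171 CPM in the KO libraries and 139 and 141 CPM in the control libraries. The part of these cells in the integrin values was not tested.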

How the data were processed

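The deposited files hold raw counts per gene symbol, 1 file per library, which the authors made by a HISAT2 alignment per the file headers. Per the submitters' processing notes, the genome build was mm10 and the tools included edgeR 3.36.0, featureCounts 2.0.8, HISAT2 2.2.1 and cutadapt 4.0. The annotation, the strand setting and the handling of multiply matching reads are not stated there. Libraries came from a SMART-seq kit without molecular identifiers, so intervals cover spread between libraries of amplified reads.

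Counts were fitted in R 4.3.3 with edgeR 4.0.16: filterByExpr (minimum count 10, total 15), TMM scaling, and a quasi-likelihood model with genotype as the only term, adjusted by Benjamini and Hochberg over 20389 genes. The SE is the log2 fold change divided by the square root of F, and intervals use the moderated degrees of freedom. DESeq2 1.42.0 was an alternative. The step was tested on simulated data. Every pair of libraries differed beyond counting error (chi-square divided by its degrees of freedom, 51.9 or more). The members and lists were chosen with earlier results of these data known. From each related list the text names up to 4 called genes, or else the 2 with the smallest p and the 2 with the highest CPM. Exon lengths and overlaps are from GENCODE, gene spans and promoters from RefSeq on GRCm38.p6, the assembly mm10 names.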

Additional observations from a re-analysis of the deposited data

How the results depend on the processing

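Over 10 alternatives the direction of each of the 10 integrins was kept, except for Itga6, which ran between -0.39 and 0.17 when each library was left out, positive without KO replicate 1. The number of integrins called was 0 in edgeR's quasi-likelihood fit and 0 with RLE scaling or library totals only. It was 3 with DESeq2, 3 with no filter on low counts, 1 at a mean of at least 5 CPM, which left out Itgb3, and between 0 and 1 when each library was left out. Wherever any was called, Itga4 was among them, with Itgal and Itgb2 where there were 3. Over all genes, 92 calls became 947 with DESeq2, 920 with no filter, 233 at 5 CPM, and 9 to 619 when each library was left out, with 9 without KO replicate 1. The cause of these shifts was not tested. The labels do not say that replicate numbers pair libraries, and deviations of same-numbered libraries did not correlate (r = -0.00956 across genes). With the replicate number as a block, 1599 genes were called, 4 of them integrins (Itga4, Itgal, Itgb2 and Itgb7). Of the other genes named, Cd47 turned sign in 6 alternatives, at -0.0033 with DESeq2, -0.0033 with RLE scaling, -0.047 at 5 CPM, -0.0088 with the replicate block, and down to -0.32 when a library was left out, the highest then being 0.34. Icam2 ran between -0.41 and 0.11 when a library was left out. Itgb3 rested on as few as 30 counts, in control 1, the shallowest library.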
